A study of Mus musculus with 10 samples.

Results

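The transcripts described here encode the aminoacyl-tRNA synthetases of the mouse and the scaffold proteins that hold a group of these enzymes together. Members were taken by gene symbol from the table of raw counts, and all 39 were found among its 43346 genes. They comprise 20 genes for cytosolic synthetases, 16 genes for mitochondrial synthetases, whose symbols end in 2, and the 3 scaffold genes Aimp1, Aimp2 and Eef1e1. Membership rests on the symbol alone, although the gene family was taken up with earlier results of these data known. Every member passed the filter on low counts in each of the 3 comparisons.

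Aminoacyl-tRNA synthetases attach each amino acid to its tRNAs and thereby supply the ribosome with charged tRNA. Separate nuclear genes serve the cytosol and the mitochondrial ribosome for most amino acids, and the enzymes fall into class I and class II by the fold of the catalytic domain. Eprs, Iars, Lars, Mars, Qars, Rars, Kars and Dars join a cytosolic multisynthetase complex assembled on the 3 scaffold proteins, while the other cytosolic enzymes act outside it. Genes of cytosolic synthetases are known as targets of the transcription factor Atf4, which acts when charged tRNA or amino acids run short.

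RNA was sequenced from O9-1 cells, a tetraploid mouse line derived from cranial neural crest, as 4 wildtype libraries, 3 Kat5 ko clones and 3 Ep400 ko clones. Kat5 is the histone acetyltransferase and Ep400 the chromatin remodelling ATPase of the Tip60/Ep400 complex, and the comparison asks how the loss of either subunit alters transcript levels. Each knockout library came from a separate clone edited with CRISPR/Cas9, sorted as a single cell by EGFP and grown on Matrigel in conditioned medium with FGF2, so clone and genotype cannot be told apart in any one library. The Kat5 clones carry frameshifts in every allele. Among the Ep400 clones this holds for Ep400/1, whereas Ep400/2 and Ep400/3 keep some alleles with small in-frame deletions at the ATP binding site. Wildtype libraries are biological replicates of the O9-1 line, whether these cultures had been transfected and sorted is not given in the sources used here, and p-values measure only the spread between these samples.

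The libraries held 30968945 to 48301792 counts, of which the 39 members took 0.764% to 0.804% in wildtype, 0.611% to 0.761% in Kat5 ko and 0.463% to 0.58% in Ep400 ko. Levels are given as normalised counts scaled to library depth (CPM) on one scale for the 10 libraries. Each edited gene was lower in its own clones. Kat5 stood at 54.5 ± 4.26 CPM (SD, n = 4) in wildtype and 20.8 ± 3.89 CPM (n = 3) in Kat5 ko, a log2 fold change of -1.40 (edgeR adjusted p = 0.0207). Ep400 stood at 162 ± 4.64 CPM (n = 4) in wildtype and 57.6 ± 2.99 CPM (n = 3) in Ep400 ko, a log2 fold change of -1.44 (edgeR adjusted p = 0.0012). Of 16 cranial neural crest markers, 12 reached 1 CPM in wildtype, while Sox10 and Foxd3 were at 0 in all 10 libraries. The summed crest markers ranged over 1560 to 1800 CPM in wildtype, 1530 to 1880 CPM in Kat5 ko and 1870 to 3050 CPM in Ep400 ko. Summed markers of epithelial, pluripotent, endothelial, blood and neuronal cells, of which 3 of 10 reached 1 CPM in wildtype and Pou5f1 was at 0 throughout, ranged over 5.47 to 9.92, 2.65 to 10.8 and 6.3 to 23.4 CPM in the same order. The crest sum was thus higher in every Ep400 ko clone than in any wildtype library, and the other sum in some clones. The largest parts in Ep400/1 to Ep400/3 were Prrx1 at 877, 948 and 2100 CPM and Tubb3 at 22.7, 10.7 and 5.01 CPM. Single crest markers went both ways in Ep400 ko, such as Tfap2a at a log2 fold change of 1.37 and Nt5e at -1.58. The part of these markers in the differences below was not tested.

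In wildtype cells the transcript levels of the cytosolic enzymes were far higher than those of most mitochondrial ones. Per kilobase of exon, the cytosolic genes ranged from 21.7 ± 1.95 CPM for Yars to 145 ± 15 CPM for Gars (SD, n = 4). Of the mitochondrial genes, 14 lay between 1.48 ± 0.152 CPM per kilobase for Nars2 and 9.45 ± 1.06 CPM per kilobase for Tars2. Iars2 at 22.3 ± 1.31 CPM per kilobase fell within the range of the cytosolic genes and did not differ beyond the spread from Farsa at 22.1 ± 2.42 CPM per kilobase. Lars2 at 133 ± 49.7 CPM per kilobase was the other exception, and its spread over wildtype libraries was the widest of the mitochondrial genes. Aimp1, Aimp2 and Eef1e1 stood at 17.7 ± 0.465, 32.5 ± 4.61 and 14.7 ± 3.34 CPM per kilobase.

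**Figure D1:**
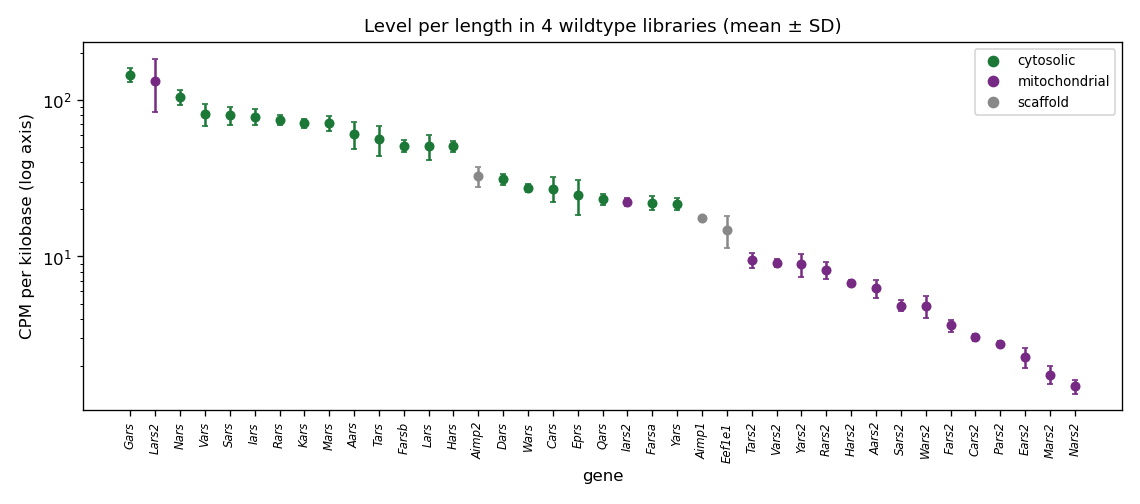
Level of each of the 39 genes in wildtype O9-1 cells as CPM per kilobase of exon on a log axis, in descending order. Points and bars are the mean ± SD of 4 libraries, and apart from Lars2 and Iars2 all mitochondrial genes lie below every cytosolic gene.

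The order at the top of the cytosolic genes was Gars, Nars, Vars, Sars and Iars. Gars exceeded Nars at 105 ± 11.7 CPM per kilobase by more than either SD. Vars at 81.4 ± 13.5, Sars at 79.8 ± 11 and Iars at 78.3 ± 9.27 CPM per kilobase did not differ beyond their spread. Gars is one of the genes, with Kars, whose transcripts supply both the cytosol and mitochondria.

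The promoters of several cytosolic members carry the letters TGATGNAA, the core of the C/EBP-ATF response element through which Atf4 is known to bind. RefSeq promoter windows (GRCm38.p6, 250 bases before to 50 bases after the transcription start) were at hand for 30 of the 39 members. Cars, Hars, Hars2, Lars, Nars, Pars2, Rars, Vars and Wars had no entry. On either strand, TGATGNAA occurred in the windows of 5 of 13 cytosolic genes, 0 of 14 mitochondrial genes and 0 of 3 scaffold genes, against 4.51% of all 27025 genes with windows. The stretches around these matches are shown because these genes, Aars, Gars, Tars, Iars and Yars, fell in Ep400 ko as described below, with the matching bases in capitals and read 5′ to 3′ in the direction of the gene. The matches of Aars, Gars and Tars begin 112, 30 and 15 bases before the start, and those of Iars and Yars 7 and 3 bases after it.
Aars, chr8:111033704-111033763, plus strand: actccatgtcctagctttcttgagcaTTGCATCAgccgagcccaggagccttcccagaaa
Gars, chr6:55037945-55038000, plus strand: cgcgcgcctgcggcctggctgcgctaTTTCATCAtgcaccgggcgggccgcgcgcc
Tars, chr15:11399659-11399699, minus strand: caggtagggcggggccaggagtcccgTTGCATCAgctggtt
Iars, chr13:49682126-49682155, plus strand: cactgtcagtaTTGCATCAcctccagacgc
Yars, chr4:129189895-129189924, plus strand: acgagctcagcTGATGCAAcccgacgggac
Yars holds the motif in the direction of the gene and the other genes hold its reverse complement. Aars has a further match 9 bases after its start. These matches describe letters in the windows and are no evidence of binding. For Dars, Kars, Sars, Sars2, Tars2, Eef1e1 and a window of Aimp1, the last bases were not found in an annotated transcript of the gene. Whether the motif is lacking near their starts is thus uncertain.

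Cytosolic synthetase transcripts were lower in Ep400 ko clones, whereas most mitochondrial ones did not pass the test. Of the 20 cytosolic genes, 14 fell and none rose. A gene was called where edgeR's quasi-likelihood test gave an adjusted p no larger than 0.05, with p-values adjusted over all 13836 genes tested. Over all genes tested, 5.72% were called lower and 8% higher. All 20 cytosolic fold changes were negative, with a median of -0.99 on the log2 scale and a range of -1.32 to -0.03, while the median over all genes tested was 0.04. Of the 16 mitochondrial genes, only Iars2 and Tars2 passed the test, both lower, and the median log2 fold change was -0.13 with a range of -0.69 to 0.41. In bulk RNA, fewer cells expressing a gene and less transcript per cell cannot be told apart.

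**Figure D2:**
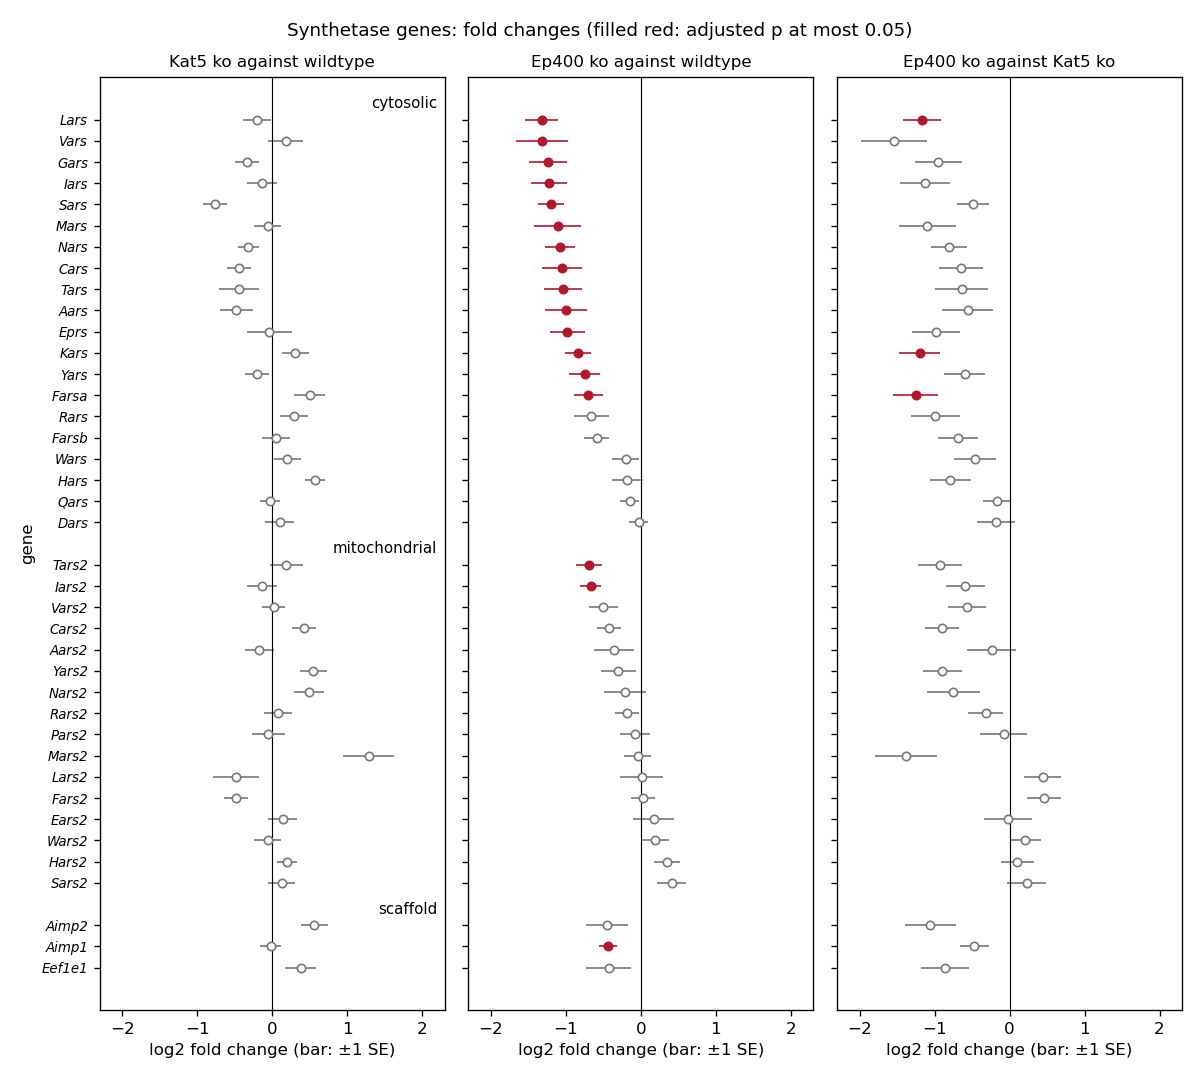
Log2 fold change ± 1 SE of each member in the 3 comparisons, with genes ordered within each class by the change in Ep400 ko. Filled red points passed an adjusted p of at most 0.05, namely 17 genes for Ep400 ko against wildtype, 3 for Ep400 ko against Kat5 ko and 0 for Kat5 ko against wildtype.

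Summed over the 20 cytosolic genes, the level was 5650 ± 661 CPM in wildtype (SD, n = 4), 5220 ± 1090 CPM in Kat5 ko (n = 3) and 2860 ± 790 CPM in Ep400 ko (n = 3). Ep400 ko thus held 50.6% and Kat5 ko 92.4% of the wildtype sum. The sum over the 16 mitochondrial genes was 2040 ± 561, 1670 ± 168 and 1870 ± 95.7 CPM in the same order, or 81.9% of wildtype in Kat5 ko and 91.7% in Ep400 ko. Most of it came from Lars2, and without this gene the sum was 561 ± 11, 607 ± 116 and 432 ± 54.7 CPM, or 108% and 77% of wildtype. The direction in Kat5 ko thus depended on Lars2.

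The lowest fold changes belonged to the synthetases for the branched-chain amino acids leucine, valine and isoleucine and for glycine and serine. Lars, the leucyl-tRNA synthetase of the multisynthetase complex, measured 268, 203, 313 and 300 CPM in the 4 wildtype libraries, 194, 246 and 273 CPM in Kat5/1 to Kat5/3 and 135, 99.5 and 81.8 CPM in Ep400/1 to Ep400/3. All Ep400 ko clones lay below every wildtype and every Kat5 ko library. The log2 fold change was -1.32 (SE 0.22, edgeR adjusted p = 0.00855), or 40% of the wildtype level.

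Vars, the free valyl-tRNA synthetase (ENSMUSG00000007029, chr17:35000987-35016322), measured 426, 425, 569 and 406 CPM in wildtype, 389, 713 and 454 CPM in Kat5 ko and 299, 138 and 99.3 CPM in Ep400 ko. The Ep400 ko clones were below all other libraries but differed among themselves, with Ep400/1 well above the others. The log2 fold change was -1.32 (SE 0.35, edgeR adjusted p = 0.0416). Gars, the glycyl-tRNA synthetase (ENSMUSG00000029777, chr6:55038007-55079500), measured 446, 394, 506 and 468 CPM in wildtype, 302, 424 and 349 CPM in Kat5 ko and 259, 183 and 118 CPM in Ep400 ko. Groups did not overlap between wildtype and Ep400 ko, and the fold change was -1.24 (SE 0.25, edgeR adjusted p = 0.0164).

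Iars, the isoleucyl-tRNA synthetase of the complex (ENSMUSG00000037851, chr13:49682100-49734267), measured 376, 377, 480 and 418 CPM in wildtype, 309, 496 and 322 CPM in Kat5 ko and 241, 158 and 118 CPM in Ep400 ko. The Ep400 ko clones lay below all others, with a log2 fold change of -1.22 (SE 0.24, edgeR adjusted p = 0.0153). Sars, the seryl-tRNA synthetase (ENSMUSG00000068739, chr3:108424865-108445209), measured 410, 357, 488 and 386 CPM in wildtype, 207, 251 and 274 CPM in Kat5 ko and 196, 182 and 142 CPM in Ep400 ko. It was the member with the smallest adjusted p among the 39, with a fold change of -1.20 (SE 0.17, edgeR adjusted p = 0.00593), and its Kat5 ko clones also lay below the wildtype range.

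**Figure D3:**
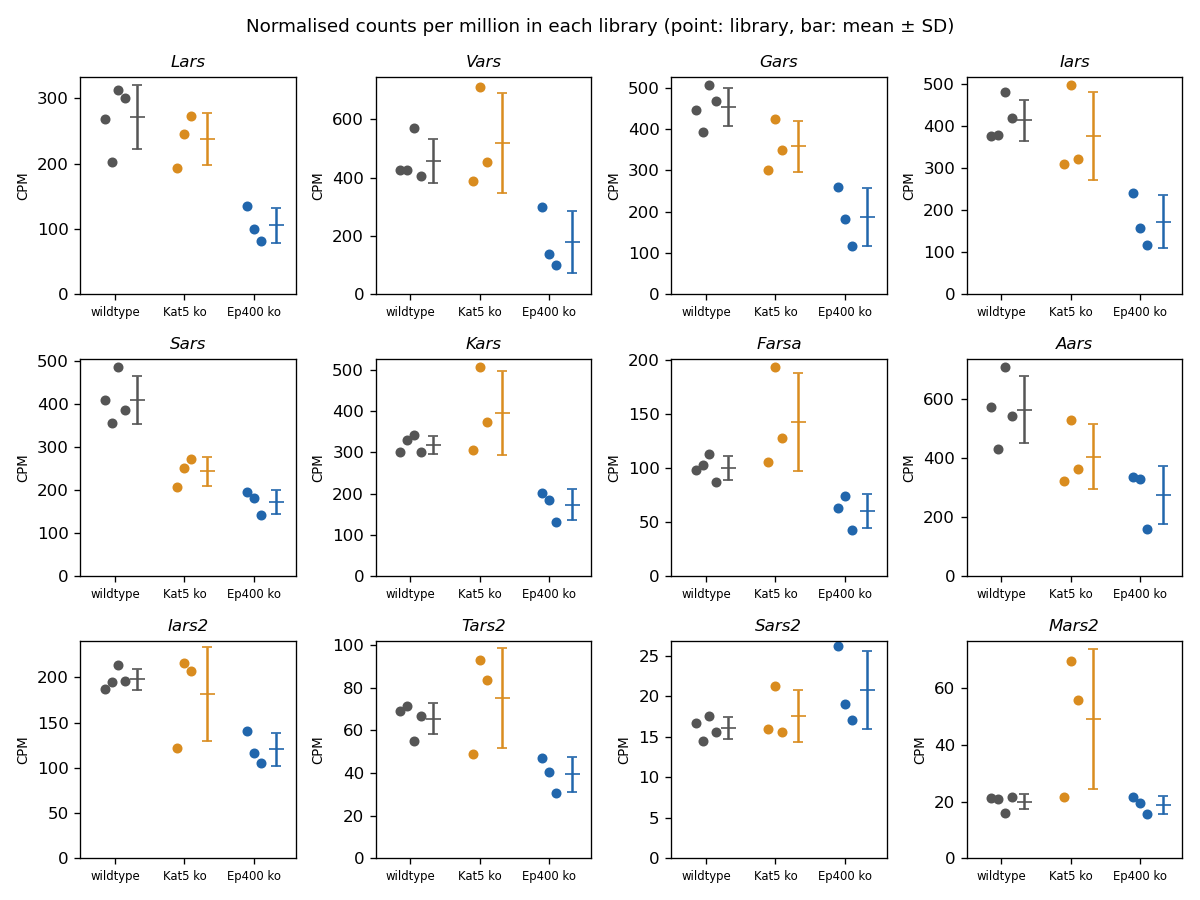
CPM of 12 members in each library, with an axis from 0 for each gene; points are libraries and bars give the mean ± SD for 4 wildtype, 3 Kat5 ko and 3 Ep400 ko libraries. The Ep400 ko points of Lars, Vars, Gars, Iars, Sars, Kars, Farsa, Aars, Iars2 and Tars2 lie below the wildtype points, those of Sars2 and Mars2 do not, and Mars2 is high in Kat5/2 and Kat5/3.

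Mars, Nars, Cars and Tars fell to about the same extent. Mars, the methionyl-tRNA synthetase of the complex, stood at 240, 223, 280 and 232 CPM in wildtype, 172, 277 and 255 CPM in Kat5 ko and 162, 111 and 56.8 CPM in Ep400 ko. Its log2 fold change was -1.11 (SE 0.31, edgeR adjusted p = 0.046), with Ep400/3 far below Ep400/1. Nars, the asparaginyl-tRNA synthetase, stood at 435, 406, 525 and 464 CPM in wildtype, 338, 375 and 393 CPM in Kat5 ko and 269, 202 and 160 CPM in Ep400 ko. Wildtype, Kat5 ko and Ep400 ko formed 3 ranges without overlap, and the change in Ep400 ko was -1.08 (SE 0.20, edgeR adjusted p = 0.0121).

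Cars, the cysteinyl-tRNA synthetase, stood at 160, 165, 228 and 165 CPM in wildtype, 130, 128 and 138 CPM in Kat5 ko and 111, 92.2 and 49.5 CPM in Ep400 ko. Here too the 3 groups did not overlap, and the log2 fold change in Ep400 ko was -1.05 (SE 0.27, edgeR adjusted p = 0.0367). Tars, the threonyl-tRNA synthetase, stood at 303, 272, 432 and 315 CPM in wildtype, 145, 299 and 288 CPM in Kat5 ko and 206, 158 and 106 CPM in Ep400 ko. Kat5/1 was as low as the Ep400 ko clones, and the change in Ep400 ko was -1.04 (SE 0.25, edgeR adjusted p = 0.0296).

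Aars, the alanyl-tRNA synthetase (ENSMUSG00000031960, chr8:111033144-111057664), was measured by the study with other assays as well. The paper reports lower Aars transcript by RT-PCR in pharyngeal arches of embryos lacking Kat5 or Ep400. Near the Aars start it reports more H2A.Z and less H4 acetylation in a clone of each knockout. By RT-PCR it also reports lower levels of selected genes in both sets of clones, with primers listed for Aars, Gars and Tars. In the counts used here, Aars stood at 571, 431, 706 and 541 CPM in wildtype, 322, 528 and 362 CPM in Kat5 ko and 334, 328 and 160 CPM in Ep400 ko. All Ep400 ko clones were below the wildtype range, and Kat5/2 lay within it. The log2 fold change was -1.0 (SE 0.28, edgeR adjusted p = 0.049) in Ep400 ko and -0.48 (SE 0.22, edgeR adjusted p = 0.247) in Kat5 ko. The call in Ep400 ko was lost in each of the 7 fits that left out one library. The genes of chromosome 8 had median log2 shifts of -0.24, -0.05 and -0.20 in Ep400/1 to Ep400/3, and with chromosome medians as offsets the value for Aars was -0.83 with an edgeR adjusted p of 0.0729. Of the exonic bases of Aars, 14.3% are shared on the same strand with Exosc6, so part of its counts is uncertain.

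The remaining called cytosolic genes fell by less. Eprs, the bifunctional glutamyl-prolyl-tRNA synthetase of the complex, measured 428, 301, 565 and 492 CPM in wildtype, 251, 547 and 506 CPM in Kat5 ko and 262, 200 and 199 CPM in Ep400 ko, with a log2 fold change of -0.98 in Ep400 ko (SE 0.23, edgeR adjusted p = 0.0262). Kars, the lysyl-tRNA synthetase, measured 301, 329, 343 and 300 CPM in wildtype, 307, 507 and 373 CPM in Kat5 ko and 203, 186 and 131 CPM in Ep400 ko, with a change of -0.84 (SE 0.17, edgeR adjusted p = 0.0179). In both genes the Ep400 ko clones stayed below wildtype, and in Eprs the clone Kat5/1 joined them.

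Yars, the tyrosyl-tRNA synthetase, measured 123, 120, 146 and 127 CPM in wildtype, 89.1, 126 and 122 CPM in Kat5 ko and 102, 67.9 and 53.6 CPM in Ep400 ko, with a log2 fold change of -0.75 (SE 0.21, edgeR adjusted p = 0.049). Farsa, the catalytic subunit of the phenylalanyl-tRNA synthetase, measured 98.2, 103, 113 and 86.8 CPM in wildtype, 106, 193 and 128 CPM in Kat5 ko and 63.1, 74.2 and 43.2 CPM in Ep400 ko, with a change of -0.70 (SE 0.19, edgeR adjusted p = 0.0479). The Ep400 ko clones lay below wildtype for both genes, whereas only for Farsa did the Kat5 ko clones reach above it. With chromosome medians as offsets, Farsa at -0.53 (edgeR adjusted p = 0.0686) and Mars at -1.08 (edgeR adjusted p = 0.0519) no longer passed.

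The other 6 cytosolic genes did not pass the test in Ep400 ko. Their log2 fold changes were -0.66 for Rars (edgeR adjusted p = 0.0948), -0.59 for Farsb (edgeR adjusted p = 0.0567), -0.20 for Wars, -0.18 for Hars, -0.15 for Qars and -0.03 for Dars. In Rars and Farsb all Ep400 ko clones were nevertheless below the wildtype range. Dars, the aspartyl-tRNA synthetase, measured 134, 130, 127 and 151 CPM in wildtype and 144, 128 and 116 CPM in Ep400 ko. Qars, the glutaminyl-tRNA synthetase, measured 152, 137, 167 and 153 CPM in wildtype and 130, 127 and 142 CPM in Ep400 ko. The groups overlapped in both genes.

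Called genes were found inside and outside the multisynthetase complex and in both enzyme classes. Of the 8 complex members 5 fell, with a median log2 fold change of -0.91, and of the 12 free enzymes 9 fell, with a median of -1.02. Class I and class II each had 7 of 10 genes called lower, with medians of -1.01 and -0.92. Here the bifunctional Eprs was counted in class I only, and the phenylalanyl-tRNA synthetase subunits Farsa and Farsb were counted separately in class II. Among the scaffold genes, Aimp1 fell from 101, 98.2, 96.2 and 102 CPM in wildtype to 72.1, 76.5 and 64 CPM in Ep400 ko, a log2 fold change of -0.44 (SE 0.12, edgeR adjusted p = 0.0401). Aimp2 and Eef1e1 had fold changes of -0.45 and -0.43 and did not pass, and only Ep400/3 was below the wildtype range for either gene. Of the exonic bases of Aimp2, 29.4% are overlapped by Eif2ak1 on the opposite strand, so its counts are uncertain. The call for Aimp1 was lost in all 7 fits without one library.

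Among the mitochondrial enzymes, Tars2 and Iars2 fell in Ep400 ko. Tars2, the mitochondrial threonyl-tRNA synthetase, measured 69.1, 71.3, 54.8 and 66.7 CPM in wildtype, 48.8, 92.9 and 83.8 CPM in Kat5 ko and 47, 40.5 and 30.8 CPM in Ep400 ko. Iars2, the mitochondrial isoleucyl-tRNA synthetase, measured 187, 195, 214 and 196 CPM in wildtype, 122, 216 and 207 CPM in Kat5 ko and 141, 116 and 105 CPM in Ep400 ko. For both genes the Ep400 ko clones and the clone Kat5/1 lay below the wildtype range. The log2 fold changes in Ep400 ko were -0.69 for Tars2 (SE 0.17, edgeR adjusted p = 0.0348) and -0.67 for Iars2 (SE 0.14, edgeR adjusted p = 0.0192). Of the 7 fits that left out one library, the call held in 2 for Tars2 and in 3 for Iars2. With chromosome medians as offsets, Tars2 at -0.64 no longer passed (edgeR adjusted p = 0.0532). Of the exonic bases of Iars2, 24.2% are overlapped by genes of the opposite strand, and whether the counting used strand was not given in the sources used here.

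At the other end, Sars2, the mitochondrial seryl-tRNA synthetase, stood at 16.7, 14.5, 17.5 and 15.6 CPM in wildtype, 15.9, 21.3 and 15.6 CPM in Kat5 ko and 26.2, 19 and 17.1 CPM in Ep400 ko. Its log2 fold change of 0.41 was the highest of the mitochondrial genes in Ep400 ko and did not pass (SE 0.19, edgeR adjusted p = 0.166), and Ep400/3 lay within the wildtype range. Its cytosolic counterpart Sars had fallen by 1.20 on the log2 scale. For leucine, Lars fell by 1.32, while Lars2 had a fold change of 0.01 with a wide error (SE 0.29). Hars2, with 27.3, 30.4, 29.3 and 29.6 CPM in wildtype and 31.7, 31 and 45.4 CPM in Ep400 ko, was the mitochondrial gene whose Ep400 ko clones all lay above wildtype (0.35, edgeR adjusted p = 0.197).

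Counted by ranges alone, all Ep400 ko clones lay below every wildtype library in 16 of 20 cytosolic and 4 of 16 mitochondrial genes, against 16% of all genes tested. They lay above every wildtype library in 0 of 20 cytosolic and 1 of 16 mitochondrial genes, against 14.3% of all genes tested. The cytosolic share was far above the background in the lower direction, whereas the mitochondrial counts departed from it by few genes.

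**Figure D4:**
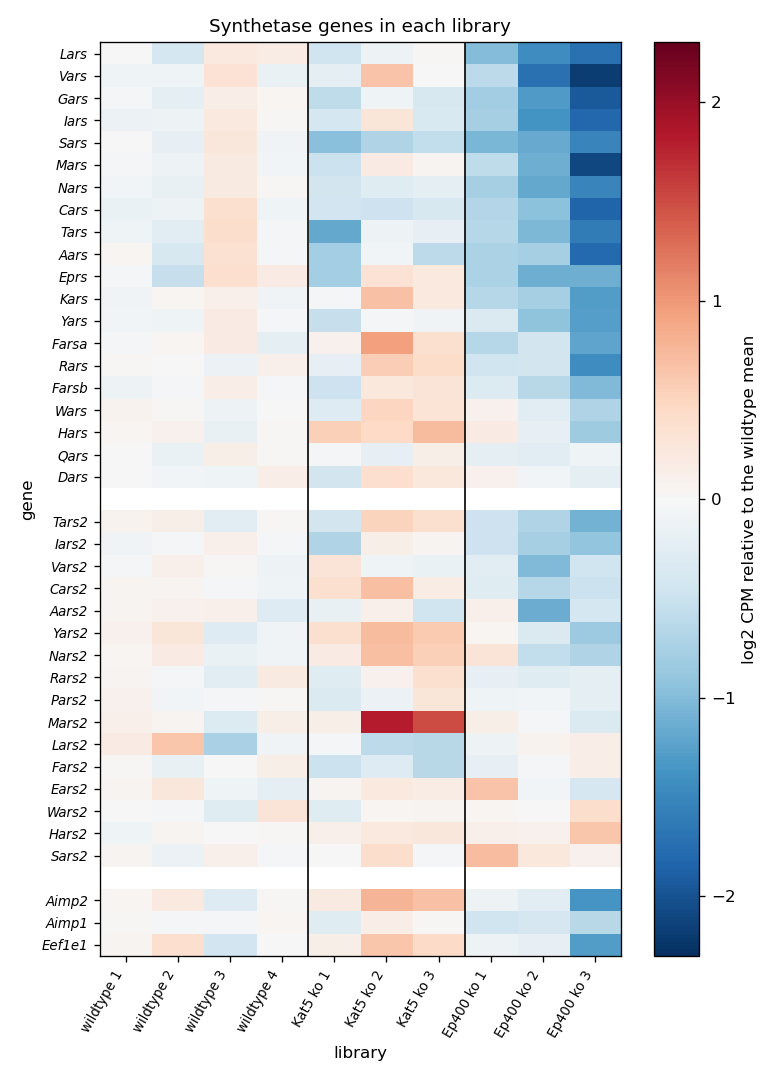
Log2 CPM of each member in each of the 10 libraries relative to the wildtype mean of that gene, with cytosolic genes at the top, mitochondrial genes in the middle and scaffold genes at the bottom. Blue marks lower and red higher levels, and the cytosolic block is bluest in Ep400/3 and paler in Ep400/1.

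The 3 Ep400 ko clones did not respond alike. The mean log2 level of the 20 cytosolic genes relative to wildtype was -0.53 in Ep400/1, -0.85 in Ep400/2 and -1.36 in Ep400/3, and Ep400/3 was the lowest clone for 19 of the 20 genes. The 4 wildtype libraries lay between -0.13 and 0.17. Ep400/1, the clone with frameshifts in every allele, thus had the mildest decrease. For the mitochondrial genes the means were 0, -0.32 and -0.29, and for the scaffold genes -0.23, -0.27 and -1.09. Without Ep400/3 the median log2 fold change of the cytosolic genes was -0.76 and 9 genes were called, and without Ep400/1 it was -1.13 with 13 genes called.

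**Figure D5:**
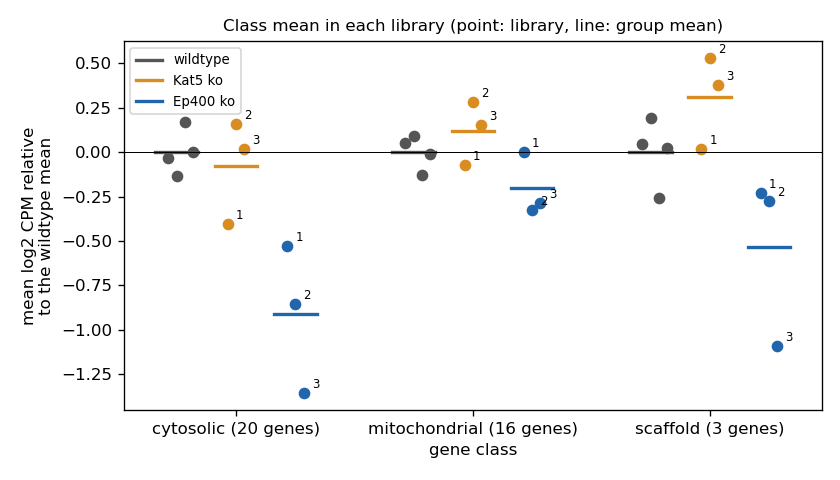
Mean log2 CPM relative to wildtype over the genes of each class, 1 point per library with the clone number beside it and a line at each group mean. The Ep400 ko clones range from -0.53 to -1.36 for cytosolic genes, and Kat5/1 at -0.41 sits apart from Kat5/2 at 0.16 and Kat5/3 at 0.01.

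The count of called cytosolic genes also rested on the wildtype libraries. It was 5, 8, 7 and 5 without wildtype 1, 2, 3 and 4, and 7 without Ep400/2. Iars, Lars, Nars and Sars passed in each of the 7 fits that left out one library and Gars and Kars in 6 of them. For the other 8 called cytosolic genes the call held in 0 to 3 of these fits. Over all genes, these 7 fits called 5.85% to 14.3% in either direction.

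In Kat5 ko clones no synthetase gene passed the test. Over 13434 genes tested, 0.447% were called lower and 0.179% higher, so few calls were to be had in this comparison. At an unadjusted p under 0.05, edgeR gave 5 of 20 cytosolic, 5 of 16 mitochondrial and 1 of 3 scaffold genes, against 22.3% of all genes tested. DESeq2 called 2 cytosolic genes and 1 mitochondrial gene, against 9.44% of all genes to which it gave an adjusted p. The median log2 fold change was -0.05 for the cytosolic genes with a range of -0.76 to 0.57, and 0.10 for the mitochondrial genes with a range of -0.48 to 1.29. The median over all genes was 0. Kat5 ko and Ep400 ko were compared with the same wildtype libraries.

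Sars and Hars, the cytosolic genes at the ends of this range, are given because of their values. Sars had a log2 fold change of -0.76 in Kat5 ko (SE 0.16, edgeR adjusted p = 0.0696) with all clones below the wildtype range, beside -1.20 in Ep400 ko. Hars, the histidyl-tRNA synthetase, measured 128, 131, 109 and 126 CPM in wildtype, 180, 168 and 203 CPM in Kat5 ko and 140, 109 and 70 CPM in Ep400 ko. All Kat5 ko clones lay above wildtype, with a log2 fold change of 0.57 (SE 0.13, edgeR adjusted p = 0.0748). Hars shares 8.0% of its exonic bases with Hars2 on the opposite strand.

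Of the mitochondrial genes, Mars2 was the highest and Fars2 the lowest in Kat5 ko. Mars2, the mitochondrial methionyl-tRNA synthetase, measured 21.3, 20.8, 16 and 21.6 CPM in wildtype, 21.7, 69.6 and 56 CPM in Kat5 ko and 21.6, 19.4 and 15.6 CPM in Ep400 ko. Kat5/2 and Kat5/3 stood far above all other libraries and Kat5/1 barely above wildtype, so the log2 fold change of 1.29 did not pass (SE 0.34, edgeR adjusted p = 0.0933). Fars2, the mitochondrial phenylalanyl-tRNA synthetase, measured 21, 18.5, 21 and 22.9 CPM in wildtype, 14.7, 16.9 and 13.4 CPM in Kat5 ko and 18.2, 20.5 and 23 CPM in Ep400 ko. Its Kat5 ko clones lay below all wildtype libraries, with a fold change of -0.48 (SE 0.16, edgeR adjusted p = 0.147). Genes of the opposite strand overlap 10.7% of the exonic bases of Fars2.

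All Kat5 ko clones lay below the wildtype range in Cars, Nars and Sars, which makes 3 of 20 cytosolic genes, and in Fars2, 1 of 16 mitochondrial genes, against 10.8% of all genes tested. They lay above it in Hars, 1 of 20 cytosolic genes, and in Cars2, Hars2, Mars2, Nars2 and Yars2, 5 of 16 mitochondrial genes, against 8.79% of all genes tested. The clones again differed. Kat5/1 was the lowest clone for 17 of 20 cytosolic genes with a mean log2 level of -0.41 relative to wildtype, whereas Kat5/2 and Kat5/3 stood at 0.16 and 0.01. Without Kat5/1 the medians were 0.05 for cytosolic and 0.19 for mitochondrial genes, and 5 of 20 cytosolic and 3 of 16 mitochondrial genes were called, close to the 19.4% of all genes called in that fit. Chromosome medians in Kat5/1 ranged from -0.37 for chromosome 15, which carries Tars, to 0.29 for the chromosome of Hars, Hars2, Lars and Nars. With chromosome medians as offsets the cytosolic median in Kat5 ko was -0.06, Tars stood at -0.43 in place of -0.44, and again no synthetase gene was called.

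Set directly against each other, Ep400 ko clones had lower cytosolic synthetase transcripts than Kat5 ko clones. Over 13587 genes tested, 2.83% were called lower and 4.22% higher in Ep400 ko. Of the 20 cytosolic genes 3 were called lower, all 20 fold changes were negative, and the median was -0.80 on the log2 scale with a range of -1.54 to -0.17, against a median of 0.01 over all genes. None of the 16 mitochondrial genes was called by edgeR, and their median was -0.28. An unadjusted p under 0.05 was found for 4 of them, against 32.4% of all genes tested, and DESeq2 called 4, against 19.9% of all genes. All Ep400 ko clones lay below all Kat5 ko clones in 12 of 20 cytosolic, 5 of 16 mitochondrial and 3 of 3 scaffold genes, against 18.9% of all genes tested.

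The called genes were Farsa at -1.25 (SE 0.30, edgeR adjusted p = 0.0496), Kars at -1.20 (SE 0.27, edgeR adjusted p = 0.0463) and Lars at -1.17 (SE 0.25, edgeR adjusted p = 0.0411). With chromosome medians as offsets, Lars at -1.07 no longer passed (edgeR adjusted p = 0.0608). With DESeq2 size factors in edgeR, Farsa at -1.24 no longer passed (edgeR adjusted p = 0.0523). In Kat5 ko, Farsa and Kars had fold changes of 0.50 and 0.31 against wildtype and Lars one of -0.20, none of which passed. Aars had a value of -0.56 (SE 0.34, edgeR adjusted p = 0.281) between the knockouts. Mars2 was the lowest mitochondrial gene at -1.38 (SE 0.41, edgeR adjusted p = 0.0702) and Fars2 the highest at 0.46 (SE 0.23, edgeR adjusted p = 0.203). The number of called cytosolic genes was 5 without Kat5/1, where 18% of all genes were called, and 11 when all 10 libraries shared one fit, where 25.3% were called. It was 1 without Ep400/1, with 2.45% of all genes called. It was 0 without any other clone, but these fits called only 3 to 81 of all genes.

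The 5 cytosolic genes with TGATGNAA in the printed stretches all fell in Ep400 ko, with log2 fold changes between -1.24 and -0.75 and a median of -1.04. Of the 8 cytosolic genes whose windows lacked it, 5 fell, between -1.20 and -0.03 over all 8 and with a median of -0.77. These 8 include Dars, Kars and Sars, whose windows are uncertain. Cars, Hars, Lars, Nars, Rars, Vars and Wars had no window and are in neither median, among them Lars and Vars at -1.32 each. The difference between the medians was not tested. In Kat5 ko the corresponding medians were -0.34 and 0.01, and none of these genes passed. The 14 mitochondrial genes with windows all lacked the motif and had medians of -0.20 in Ep400 ko and 0.11 in Kat5 ko.

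Genes around the Atf4 axis, which senses uncharged tRNA and induces amino acid synthesis and transport, were lower in both knockouts at some members. The list holds 16 genes and partly overlaps with genes that the study examined on these samples, so it is no independent evidence of a direction. In Kat5 ko 3 of 16 fell and none rose, against 0.447% of all genes tested called lower, with a median log2 fold change of -0.58. In Ep400 ko 4 of 16 fell and none rose, against 5.72% of all genes tested called lower, with a median of -0.68. Asns, the asparagine synthetase, fell in both, from 240, 193, 286 and 256 CPM in wildtype to 74.3, 124 and 102 CPM in Kat5 ko (-1.29, SE 0.21, edgeR adjusted p = 0.0482) and to 130, 55.7 and 48.7 CPM in Ep400 ko (-1.60, SE 0.34, edgeR adjusted p = 0.0195). No knockout library reached the wildtype range.

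Trib3, a pseudokinase that restrains Atf4, fell to 2.3, 3.66 and 4.4 CPM in Kat5 ko and to 12, 5.32 and 7.24 CPM in Ep400 ko from 52, 16.1, 65.7 and 45.3 CPM in wildtype. The log2 fold changes were -3.70 (SE 0.50, edgeR adjusted p = 0.0287) and -2.40 (SE 0.48, edgeR adjusted p = 0.0162). Chac1, which degrades glutathione, passed in Kat5 ko at -2.65 (edgeR adjusted p = 0.0445). In Ep400 ko, Phgdh, the first enzyme of serine synthesis, fell by 1.61 (edgeR adjusted p = 0.0213) and Cebpg, a partner of Atf4, by 0.77 on the log2 scale (edgeR adjusted p = 0.00959). Atf4 itself stood at 516 ± 87.9 CPM in wildtype (SD, n = 4), 335 ± 71.7 CPM in Kat5 ko and 332 ± 136 CPM in Ep400 ko (n = 3 each), with fold changes of -0.63 (edgeR adjusted p = 0.126) and -0.60 (edgeR adjusted p = 0.188). Between the knockouts 2 of the 16 genes were called, Cebpb at 1.46 (edgeR adjusted p = 0.0294) and Atf5 at 1.41 (edgeR adjusted p = 0.0433), both higher in Ep400 ko. Over all genes tested, 4.22% were called higher in this contrast.

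Other steps of tRNA metabolism had few calls, near the shares over all genes tested. Called lower were 5.72% of all genes in Ep400 ko and 0.447% in Kat5 ko. Of 15 partners of tRNA charging, 1 fell in Ep400 ko and none in Kat5 ko, with medians of 0.01 and 0.13. Most of these partners modify, edit or recycle charged tRNA or, as Ppa1, hydrolyse the pyrophosphate that charging releases. The list also holds Tarsl2, a threonyl-tRNA synthetase gene outside the 39 members, at -0.04 in Ep400 ko (edgeR adjusted p = 0.892). In Kat5 ko, 3 of the 15 genes had an unadjusted p under 0.05 in edgeR, against 22.3% of all genes tested. The partner that fell in Ep400 ko was Ppa1, which fell by 1.28 on the log2 scale (SE 0.29, edgeR adjusted p = 0.0242) from 140, 145, 110 and 138 CPM in wildtype to 78.5, 52.1 and 30.1 CPM in Ep400 ko, and was also lower in Ep400 ko than in Kat5 ko at -1.92 (edgeR adjusted p = 0.0366).

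Of 26 genes of tRNA processing, modification and export, 1 fell in Ep400 ko, against 5.72% of all genes tested. This was Xpot, the nuclear export receptor of tRNA, at -0.93 (SE 0.21, edgeR adjusted p = 0.0244). None passed in Kat5 ko, where 0.447% of all genes were called lower and 0.179% higher. The list had a median of -0.07 in Ep400 ko. In Kat5 ko 24 of the 26 fold changes were positive with a median of 0.32, and 10 had an unadjusted p under 0.05, against 22.3% of all genes tested. Between the knockouts, Pus7, a tRNA pseudouridine synthase, was lower in Ep400 ko at -1.23 (SE 0.25, edgeR adjusted p = 0.0376). In this contrast 2.83% of all genes were called lower. Both lists were mostly lower in Ep400 ko here. Of the 26 genes, 22 fold changes were negative with a median of -0.51, and 11 had an unadjusted p under 0.05 in edgeR, against 32.4% of all genes tested. Of the 15 charging partners, 12 were negative with a median of -0.28, and 3 had an unadjusted p under 0.05.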

How the data were processed

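Poly-A RNA of 10 O9-1 cultures had been sequenced by the authors in paired-end mode. Per the submitters' processing notes, bcl2fastq 2.20, STAR 2.7.3 and the mm10 build were used, with DESeq2 1.36.0 in R 4.2.1 downstream. The counting program, its strand setting and the annotation were not given in the sources used here. The deposited table holds raw counts per gene. Further deposited tables with counts divided by DESeq2 size factors were not used.

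Groups were taken from the titles. In R 4.3.3, edgeR 4.0.16 was run for each comparison on the groups compared, with filterByExpr, TMM factors and a robust quasi-likelihood test, and called genes had a Benjamini-Hochberg adjusted p of at most 0.05 over all genes tested. The SE was derived from the fold change and its F statistic. CPM used TMM factors over the 10 libraries, and log2 CPM a prior count of 2. Alternatives were DESeq2 1.42.0, its size factors in edgeR, no filter, 1 fit over all libraries, a replicate block and chromosome medians as offsets. Each library was also left out in turn. A further alternative applied the study's limits to the edgeR calls, although the study itself had used DESeq2. These limits were a fold change of at least 1 on the log2 scale and a mean count over 100. The test was run on simulated counts first. Replicates of a group differed by more than counting noise, with a chi-square statistic of 28.1 to 258 for each degree of freedom.

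The same replicate numbers occur in each group. Residual correlations of same-numbered libraries ranged from -0.0963 to 0.223 over 9 pairs, so the numbers were not taken as pairs. Positions and exon lengths are from GENCODE M21 on GRCm38, and promoter windows from RefSeq (GRCm38.p6), matched by symbol or older symbol.

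The members, gene lists and motif were chosen with earlier results of these data known. Values in every library were given for up to 15 called members per comparison by size of change, for Aars and for the highest and lowest mitochondrial members, to which Iars2 and Aimp1 were added as the remaining called members. Dars, Qars, Hars and Hars2, which did not pass the test, and Asns, Trib3 and Ppa1 of the other lists were added after their values were seen. One gene of these lists is not reported here.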

Additional observations from a re-analysis of the deposited data

Results flagged for a closer look

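In wildtype, 4 of the 39 genes had 1 library far from the other 3 by Dixon's criterion, which by chance flags about 1 in 20 groups. Cars at 228 CPM and Vars at 569 CPM were high in wildtype 3, and Mars2 at 16 CPM was low in the same library. Aars2 was low in wildtype 4 at 24.1 CPM.

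The response of 3 cytosolic genes differed between the knockouts in the direct edgeR contrast of Ep400 ko with Kat5 ko. The log2 difference was -1.25 for Farsa (edgeR adjusted p = 0.0496), -1.20 for Kars (edgeR adjusted p = 0.0463) and -1.17 for Lars (edgeR adjusted p = 0.0411), and in each gene all Ep400 ko clones lay below all Kat5 ko clones. Each of these calls held in 1 of the 6 fits that left out 1 clone. The call for Lars was also lost with chromosome offsets, and that for Farsa with DESeq2 size factors in edgeR.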

How the results depend on the processing

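For the called members, Aars and the highest and lowest mitochondrial members, no fold change changed sign under the alternatives run, and 228 of 345 values stayed on the same side of the threshold. Leaving out single libraries turned the sign of 23 of the 97 values that had not been called over the 3 comparisons, none of them above 0.24 in size with all libraries, such as Dars (-0.10 to 0.04), Hars (-0.42 to 0.04) and Lars2 (-0.20 to 0.25) in Ep400 ko and Eprs (-0.23 to 0.24) in Kat5 ko. For Ep400 ko against wildtype, 14 cytosolic and 2 mitochondrial genes were called, with 13.7% of all genes called in either direction. These counts became 9 and 0 with all libraries in 1 fit (9.03% of all genes) and 11 and 1 with chromosome offsets (13.4%). DESeq2 called 15 and 2 (19.4%). The study's limits on fold change and mean count, applied to the edgeR calls, left 9 and 0, with no share over all genes computed. Leaving out single libraries gave 5 to 13 cytosolic and 0 to 2 mitochondrial genes (5.85% to 14.3%). For Kat5 ko against wildtype, where edgeR called 0, DESeq2 called 2 cytosolic genes and 1 mitochondrial gene with 9.44% of all genes, and leaving out single libraries gave 0 to 5 and 0 to 3, the highest without Kat5/1, where 19.4% of all genes were called. For Ep400 ko against Kat5 ko, the 3 cytosolic and 0 mitochondrial calls became 10 and 4 with DESeq2 (19.9% of all genes called) and 11 and 4 in 1 fit (25.3%), and 0 to 5 and 0 to 3 without single libraries (0.0218% to 18%). The mitochondrial median of this contrast, -0.28, ranged from -0.47 to -0.21 without single clones.

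With a replicate block, for which wildtype 4 was left out, edgeR called 0 cytosolic and 0 mitochondrial genes in all 3 comparisons, although the cytosolic median for Ep400 ko was -0.97 and 16 cytosolic and 3 mitochondrial genes had an unadjusted p under 0.05. The block left 168 calls among 13707 genes (1.23%) in that comparison and 213 among 13587 (1.57%) in the direct contrast. In Kat5 ko it left 0 calls among 13244 genes, so no member could be called there. In the direct contrast 11 cytosolic and 5 mitochondrial genes, and in Kat5 ko 3 and 2, had an unadjusted p under 0.05. The share of all genes at this unadjusted threshold was not computed with the block, so these member counts have no background beside them. The numbers are not known to pair the libraries.

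With 3 clones a group, many calls lay close to the threshold: in Ep400 ko those of Aars and Aimp1 held in 0 of the 7 fits without one library. Lars2 had an SE of 0.29 and is uncertain.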
